A study of Homo sapiens with 18 samples.

Results

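The genes described here encode the lamins (LMNA, LMNB1, LMNB2), proteins of the inner nuclear membrane that bind the lamina (LBR, TMPO, SUN1, SUN2) and the high mobility group box proteins HMGB1, HMGB2 and HMGB3. The 10 genes were chosen by name and matched by symbol in a count table of 57500 genes. All 10 passed the filter on low counts, which left 16994 genes. The lowest count of any of them in any library was 72.

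The nuclear lamina is a meshwork of A-type and B-type lamins on the inner face of the nuclear envelope. LBR and TMPO, whose products include the LAP2 proteins, tether chromatin to it, and the SUN proteins link it through nesprins to the cytoskeleton. HMGB proteins bend DNA within chromatin, and HMGB1 can also leave the nucleus and act as an alarmin. Loss of lamin B1 and of nuclear HMGB1 and HMGB2 are widely used marks of cellular senescence, and transcripts of several of these genes are known to be higher in dividing than in resting cells.

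The libraries were made from polyadenylated RNA of IMR90 cells, a line of human embryonic lung fibroblasts, which overexpressed Parkin in all 6 groups. Proliferating cells (Prol) were not irradiated. Cells of the other groups were irradiated with X-rays to make them senescent (Sen (IR)). In 4 of these groups CCCP was added from the day after irradiation, per the methods, and the cells were collected later. CCCP depolarizes mitochondria so that Parkin marks them for removal. These mitochondria-depleted cells received nothing more, acetate, transfected mtDNA, or acetate and mtDNA together. Per the methods, acetate was begun once mitochondria were cleared and was given repeatedly, whereas mtDNA was transfected days later. The length of exposure thus differed between acetate and mtDNA. Whether groups without mtDNA received the transfection reagent is not stated, so mtDNA cannot be told apart from the transfection itself. Each group holds 3 libraries of 1 cell line, so p-values measure the spread between these libraries only. No group among these 18 libraries combined CCCP with proliferating cells, or acetate with senescent cells that kept their mitochondria.

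Depth lay between 24624886 and 46224280 counts a library. Transcripts encoded by mtDNA made up 1.76% to 2.92% of counts in proliferating and senescent libraries and 0.0463% to 0.238% after CCCP. Among fibroblast markers, VIM lay between 2667 and 4091 TPM, COL1A1 between 267 and 6519 TPM and LUM between 37.6 and 275 TPM. Their differences between groups are given below, with the cell cycle genes. KRT5, KRT14 and CD3E reached at most 3 counts in a library and EPCAM at most 129. Summed over their lists, epithelial markers came to 0.378 to 3.36 CPM and endothelial markers to 0.164 to 0.964 CPM. The immune marker PTPRC had at most 10 counts in a library. Replicate 2 of the acetate and mtDNA group stood apart from its group. Its summed level of 7 interferon response genes was 3051 CPM beside 785 and 787 CPM, and its mtDNA-encoded share was 0.238% beside 0.0626% and 0.0642%. Replicate 3 of Sen (IR) lay below the other 2 in every one of the 10 genes but HMGB3, LMNA, SUN1, SUN2 and HMGB2 among them. In that library the mtDNA-encoded share was 2.66% beside 1.95% and 1.76%. Values without these libraries are given beside the results they moved most. In bulk RNA, fewer cells expressing a gene and less RNA of it per cell cannot be told apart.

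Senescent cells had less RNA of every one of the 10 genes than proliferating cells, most of all LMNB1 and HMGB2. In cells given CCCP, 7 of them were higher than in senescent cells without it. With acetate 7 were lower than in depleted cells, among them LMNB1 at the lowest level of any group. Added mtDNA left 9 of the 10 short of the threshold. In numbers, edgeR's quasi-likelihood test with Benjamini-Hochberg adjustment over all 16994 genes called 10 of 10 lower in Sen (IR) than in Prol, where 29.9% of all genes were called lower and 26.7% higher. With CCCP against Sen (IR), 7 were higher, 2 lower and 1 neither, beside 34% of all genes higher and 31.3% lower. With acetate in depleted cells, 1 was higher and 7 lower, beside 28.8% and 28.3% of all genes. With mtDNA alone, 1 was higher and 0 lower, beside 10.7% and 7.4%. The median log2 fold change of the 10 genes was -0.58, 0.38, -0.49 and 0.018 in these comparisons, in the same order, against -0.011, 0.026, 0.0054 and 0.0029 over all tested genes.

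**Figure D1:**
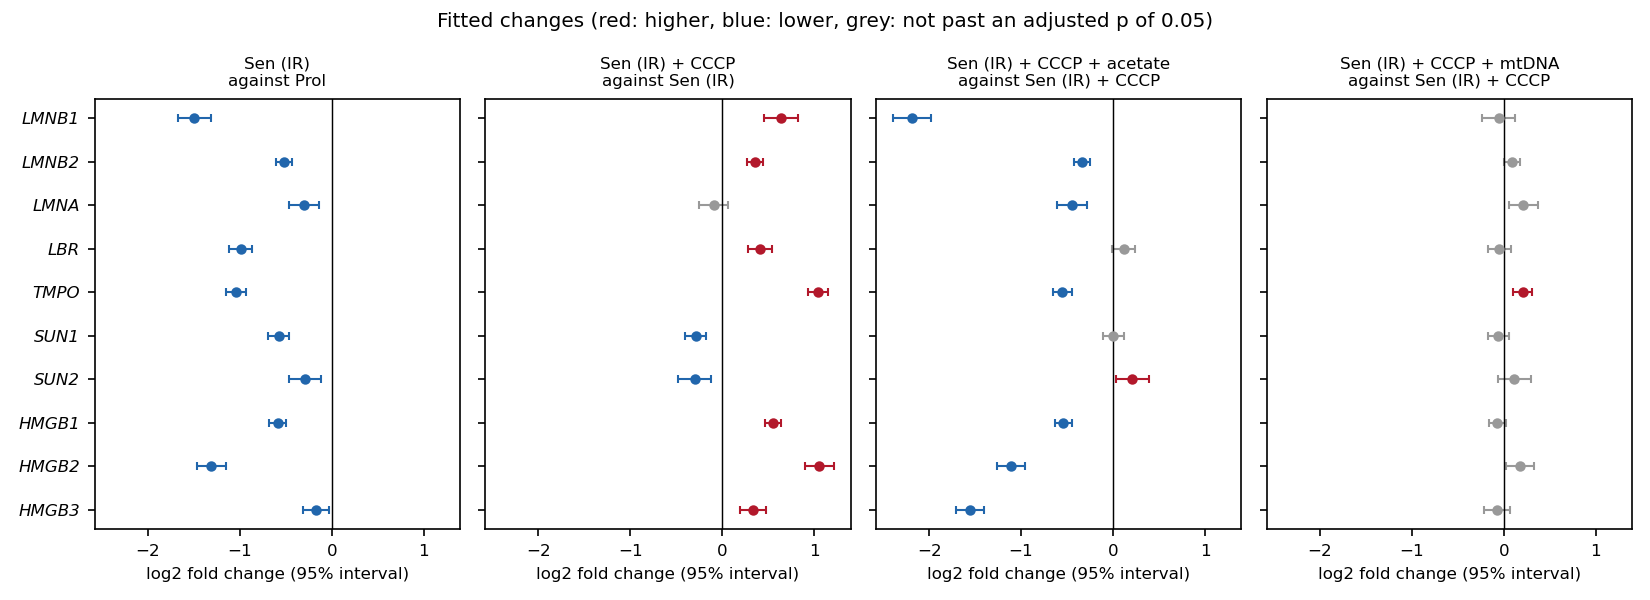
Log2 fold change of each gene in 4 comparisons, as points with 95% intervals on a shared horizontal axis. In Sen (IR) against Prol, all 10 points lie left of 0. In the CCCP panel 7 lie right of 0 as called rises, and in the acetate panel LMNB1 (-2.19), HMGB3 (-1.56) and HMGB2 (-1.11) lie farthest left.

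LMNB1 encodes lamin B1 and lies on chr5:126776623-126837020 (GRCh38, plus strand). Levels are given as CPM scaled by TMM factors, in the order of the replicates. In proliferating cells its CPM were 25.03, 22.6 and 24.5, and in senescent cells 8.90, 9.02 and 7.65. After CCCP alone they were 11.8, 14.6 and 13.4, and with acetate 2.94, 2.86 and 2.94. With mtDNA they were 13.6, 12.4 and 12.3, and with acetate and mtDNA 3.46, 2.95 and 3.54. The libraries of proliferating cells were the highest, those of the CCCP and mtDNA groups overlapped each other below them, those of senescent cells came next, and all 6 acetate libraries lay lowest. LMNB1 fell 2.82-fold from Prol to Sen (IR) (log2 fold change -1.49, SE 0.088, adjusted p = 3.89e-12, edgeR) and rose 1.56-fold with CCCP (0.64, SE 0.090, adjusted p = 1.77e-06). With acetate it fell 4.56-fold in depleted cells (-2.19, SE 0.10, adjusted p = 5.61e-14). The groups of each of these comparisons did not overlap.

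LMNB2, which encodes lamin B2 (chr19:2427638-2456959, minus strand), moved in the same directions by less. Its CPM were 85.3 ± 1.89 (SD, n = 3) in proliferating, 59.4 ± 2.31 in senescent and 76.1 ± 1.81 in depleted cells, and 60.1 ± 0.348 with acetate. The log2 fold changes were -0.52 from Prol to Sen (IR) (adjusted p = 7.78e-10), 0.36 with CCCP (adjusted p = 1.41e-07) and -0.34 with acetate (adjusted p = 4.00e-07, all edgeR). The acetate libraries of LMNB2 lay within the range of the senescent ones, whereas those of LMNB1 lay below it.

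LMNA, the source of lamins A and C (chr1:156082573-156140081, plus strand), was the most abundant lamin transcript, at 228 TPM in proliferating cells beside 58.8 TPM for LMNB2 and 24.9 TPM for LMNB1. Its CPM were 417, 444 and 408 in proliferating and 370, 368 and 293 in senescent cells. The fall between these groups was small (log2 fold change -0.30, SE 0.077, adjusted p = 0.00228, edgeR) and was -0.20 (adjusted p = 0.0135) without replicate 3 of Sen (IR). In depleted cells its CPM were 319, 341 and 305, within the range of the senescent libraries. The change with CCCP was -0.096 (95% interval -0.26 to 0.065, adjusted p = 0.285). Without replicate 3 of Sen (IR) it was -0.20 and passed the threshold (adjusted p = 0.012). With acetate LMNA fell, to 239, 239 and 231 CPM (-0.44, SE 0.077, adjusted p = 4.11e-05), with no overlap with the depleted libraries.

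**Figure D2:**
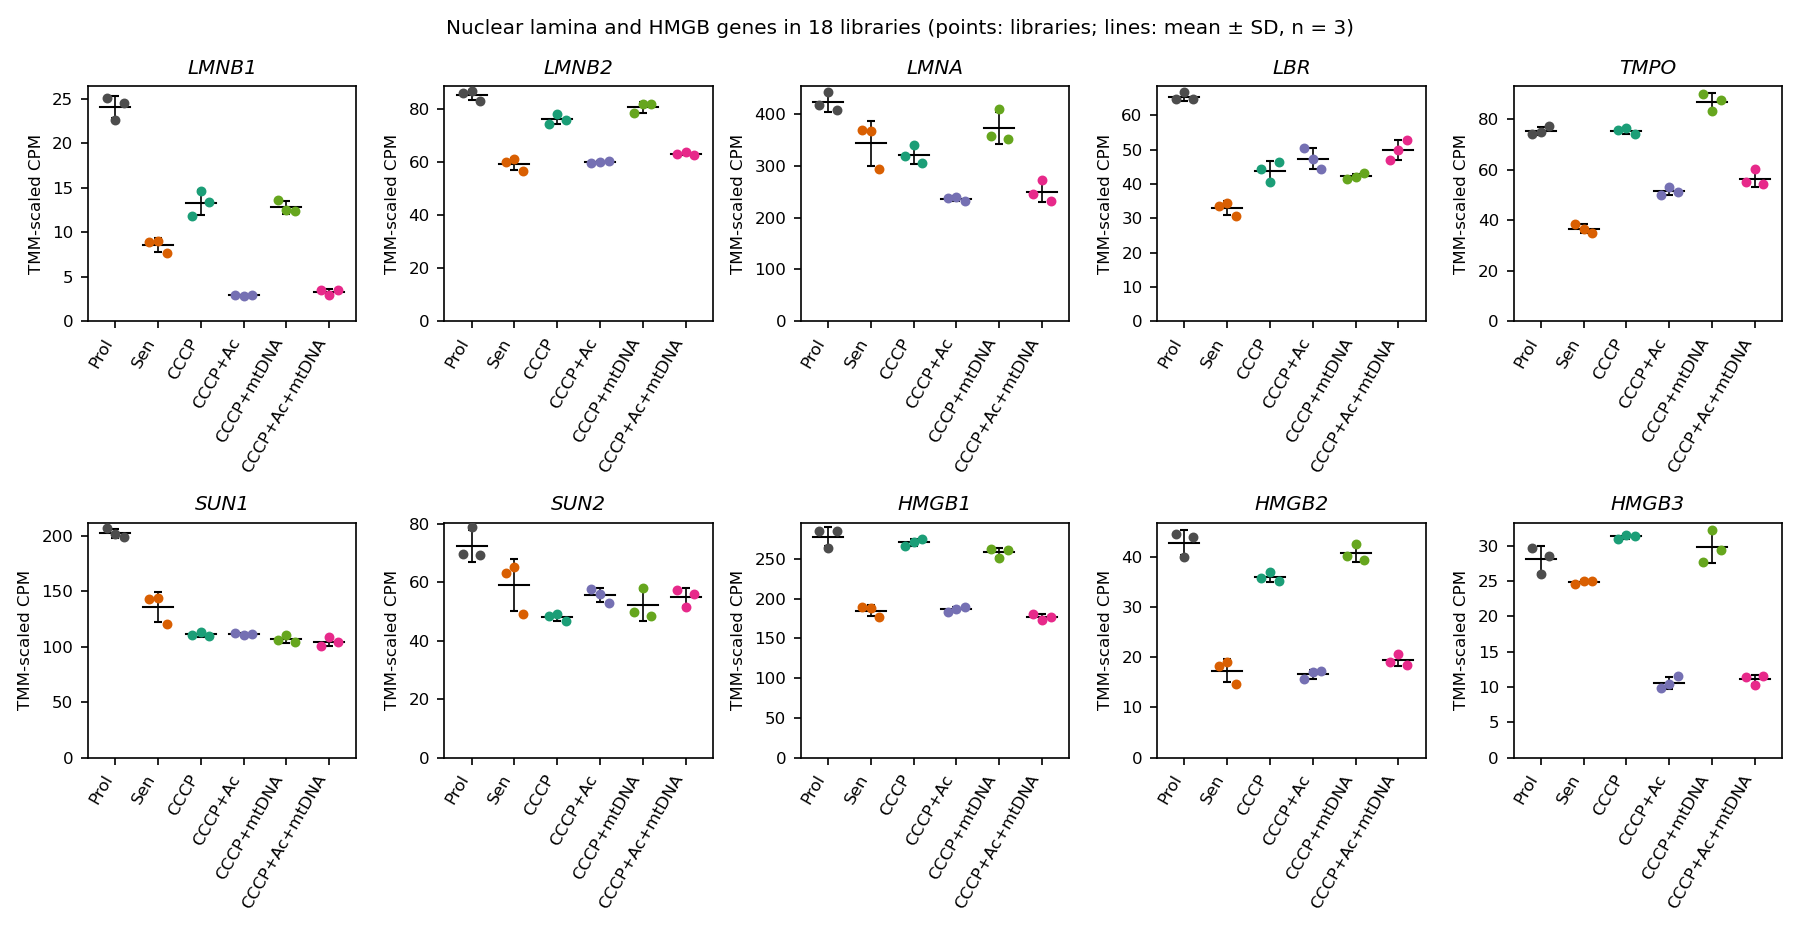
TMM-scaled CPM of each of the 10 genes in every library, by group, with the mean and SD of 3 libraries. LMNB1 is lowest in the groups with acetate, with means of 2.91 and 3.32 CPM, and LBR and SUN2 do not show that drop.

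The make-up of the lamin transcript pool differed between groups. LMNB1 made up 8.01 ± 0.638% (SD, n = 3) of the summed TPM of the 3 lamin genes in proliferating and 3.77 ± 0.0899% in senescent cells. Its share was 5.74 ± 0.468% in depleted cells and 1.76 ± 0.0434% with acetate. With mtDNA it was 4.93 ± 0.484%, and with acetate and mtDNA 1.90 ± 0.288%. LMNB2 held 18.9 ± 0.289% of the pool in proliferating and 17.5 ± 1.38% in senescent cells. Its share was already 21.9 ± 0.709% in depleted cells, and it was 24.1 ± 0.418% with acetate, where LMNB2 itself fell. LMNA held 73.1%, 78.7%, 72.4% and 74.2% in the same order. TPM divide by gene length, so the shares rest on the lengths that were used for them. The share of LMNB1 in CPM, without length, was lower in every group, and the groups kept their order.

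**Figure D3:**
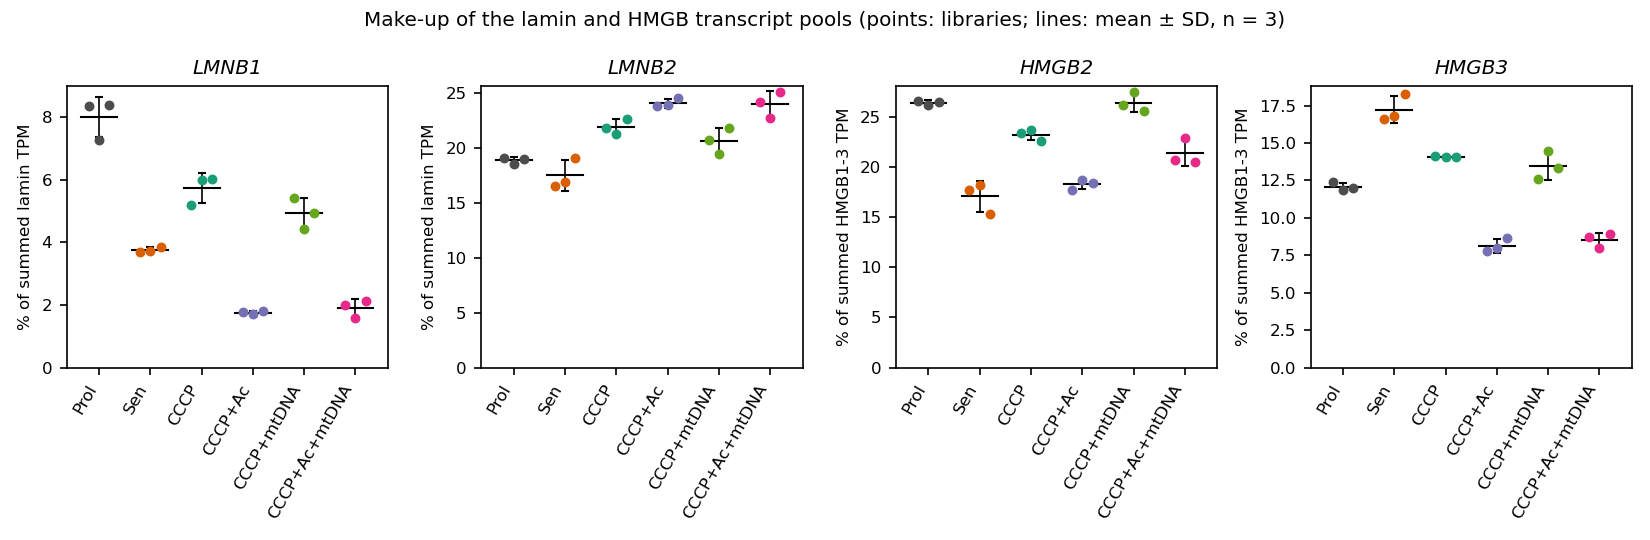
Share of LMNB1 and LMNB2 in the summed TPM of the lamin genes and of HMGB2 and HMGB3 in the summed TPM of HMGB1 to HMGB3, in percent per library, with mean and SD by group. LMNB1 lies between 7.27% and 8.38% in proliferating libraries and between 1.58% and 2.13% in the 3 libraries with acetate and mtDNA, which enclose those with acetate alone.

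TMPO lies on chr12:98515579-98550351 (plus strand). Its CPM were 74.0, 74.9 and 77.2 in proliferating, 38.6, 36.5 and 34.8 in senescent and 75.6, 76.4 and 73.9 in depleted cells. With acetate they were 49.9, 53.1 and 51.0. Depleted cells thus overlapped proliferating cells in TMPO, and the acetate libraries lay between them and the senescent ones. TMPO fell 2.05-fold from Prol to Sen (IR) (log2 fold change -1.04, SE 0.052, adjusted p = 2.75e-13, edgeR). It rose by the same factor with CCCP (1.04, SE 0.052, adjusted p = 1.26e-13) and fell 1.47-fold with acetate (-0.55, SE 0.050, adjusted p = 4.35e-09). With mtDNA alone TMPO was the 1 gene of the 10 to pass the threshold, at 89.9, 83.1 and 87.5 CPM (0.21, SE 0.050, adjusted p = 0.00563), above every depleted library. On log2(TPM + 1) with limma this rise was 0.13 with an adjusted p of 0.0574.

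LBR encodes a chromatin tether with sterol reductase activity (chr1:225401502-225428925, minus strand). It fell 1.99-fold from Prol to Sen (IR), from 65.4 ± 1.18 to 32.9 ± 1.98 CPM (SD, n = 3, log2 fold change -0.99, adjusted p = 9.54e-12, edgeR). With CCCP it rose to 43.7 ± 3.01 CPM (0.41, adjusted p = 5.08e-06), short of the proliferating range. With acetate it did not pass the threshold. Its CPM were 50.4, 47.3 and 44.5 with acetate, overlapping the depleted libraries at 44.2, 40.5 and 46.5 (0.12, 95% interval -0.0085 to 0.24, adjusted p = 0.105). Without replicate 3 of the depleted group the change was 0.18 (adjusted p = 0.0233), without replicate 3 of the acetate group 0.18 (adjusted p = 0.0226) and without replicate 3 of the combined group 0.14 (adjusted p = 0.0495).

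SUN1 (chr7:816615-896435, plus strand) and SUN2 (chr22:38733290-38794143, minus strand) encode the inner membrane side of the bridge between nucleus and cytoskeleton. SUN1 fell from 202 ± 4.08 CPM in proliferating to 136 ± 13.3 CPM in senescent cells (log2 fold change -0.57, adjusted p = 8.07e-09, edgeR), and SUN2 from 72.6 ± 5.45 to 59.2 ± 8.90 CPM (-0.29, adjusted p = 0.00532). Senescent SUN2 was at 63.2, 65.4 and 49.0 CPM, and without replicate 3 of Sen (IR) its fall was -0.18 (adjusted p = 0.0373) and that of SUN1 -0.50. On log2(TPM + 1) SUN2 did not pass the threshold (-0.22, adjusted p = 0.0584). With CCCP the direction of both depended on the scaling. By TMM, SUN1 was 111 ± 2.07 CPM in depleted cells (-0.29, adjusted p = 7.01e-05). SUN2 was at 48.0 ± 1.26 CPM (-0.30, adjusted p = 0.0037), with its highest depleted library level with the lowest senescent one, replicate 3, at 49.0 CPM each. Without replicate 3 of Sen (IR) the changes were -0.37 for SUN1 and -0.42 for SUN2. By library size neither passed the threshold (-0.030 and -0.039), and on log2(TPM + 1) SUN1 was higher (0.14, adjusted p = 0.0186), with SUN2 at 0.13 (adjusted p = 0.207). With acetate SUN1 was 111 ± 1.02 CPM (0.0049, 95% interval -0.11 to 0.12) and SUN2 rose to 55.6 ± 2.41 CPM (0.21, adjusted p = 0.0384). The rise of SUN2 lost the threshold without replicate 3 of the depleted group (adjusted p = 0.0705), without acetate replicate 1 (0.076) or replicate 2 (0.0559), and in DESeq2's test (0.0594). The annotated span of SUN1 overlaps that of GET4 on the same strand. That of SUN2 overlaps DNAL4 on the same and GTPBP1 on the opposite strand, and whether these libraries kept strand is not stated.

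HMGB2 lies on chr4:173331376-173334432 (minus strand). Its CPM were 44.6, 40.1 and 44.1 in proliferating, 18.3, 19.0 and 14.7 in senescent and 35.8, 37.1 and 35.2 in depleted cells. They were 15.6, 17.2 and 17.2 with acetate. The acetate libraries lay within the range of the senescent ones, and the depleted libraries lay between those and the proliferating ones. HMGB2 fell 2.48-fold from Prol to Sen (IR) (log2 fold change -1.31, SE 0.076, adjusted p = 3.65e-12, edgeR), and the change was -1.21 without replicate 3 of Sen (IR). It rose 2.08-fold with CCCP (1.06, SE 0.076, adjusted p = 5.77e-11) and fell 2.16-fold with acetate (-1.11, SE 0.075, adjusted p = 3.74e-11).

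HMGB1 (chr13:30456704-30617597, minus strand) moved in the same directions by less. Its CPM were 278 ± 11.95 (SD, n = 3) in proliferating, 185 ± 7.05 in senescent and 271 ± 4.51 in depleted cells, and 187 ± 3.43 with acetate. Depleted and proliferating libraries overlapped, as did acetate and senescent libraries. The log2 fold changes were -0.59 (adjusted p = 2.01e-10), 0.55 (adjusted p = 2.82e-10) and -0.54 (adjusted p = 6.95e-10), in the order of senescence, CCCP and acetate (edgeR).

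HMGB3 (chrX:150980509-150990771, plus strand) differed from both in where it changed. Its CPM were 29.7, 26.0 and 28.5 in proliferating and 24.6, 25.06 and 25.04 in senescent cells, a fall of 0.17 on the log2 scale (SE 0.068, adjusted p = 0.0369, edgeR). That call is lost in DESeq2's test (adjusted p = 0.0621) and without replicate 1 of Prol (0.0916), replicate 3 of Prol (0.0879), replicate 1 of Sen (IR) (0.0839) or replicate 3 of Sen (IR) (0.0507). It is also lost by library size (-0.077, adjusted p = 0.379), on log2(TPM + 1) (-0.085, adjusted p = 0.309), with the compared groups by themselves (-0.13, adjusted p = 0.117) and with 10 counts required in every library (adjusted p = 0.0612). With CCCP it was 1.26-fold higher than in senescent cells, at 30.9, 31.5 and 31.4 CPM (0.33, adjusted p = 1.89e-04). With acetate it was 2.94-fold lower than in depleted cells, at 9.82, 10.4 and 11.5 CPM (-1.56, SE 0.071, adjusted p = 5.99e-14), well below senescent cells. As shares of the summed TPM of the 3 genes, HMGB3 held 17.2 ± 0.920% (SD, n = 3) in senescent and 8.13 ± 0.445% in acetate-treated cells, and HMGB2 17.1 ± 1.54% and 18.3 ± 0.521%.

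Processed pseudogenes of these genes could take or lend reads in the counting. The table holds 48 entries named as HMGB1 pseudogenes, whose counts summed to 4.84% of those of HMGB1, 29 for HMGB3 with 1.47% of its counts and 1 for HMGB2 with 0.0541%. HMGB1P6, the largest, held 2.31% of the HMGB1 counts and followed its parent, with log2 fold changes of -0.57, 0.57 and -0.59 for senescence, CCCP and acetate (adjusted p = 3.50e-04, 2.32e-04 and 1.60e-04, edgeR). TMPO-AS1, which overlaps the start of TMPO on the opposite strand, held 4 to 76 counts a library. Its fitted changes were 1.84 with CCCP (adjusted p = 3.12e-05) and -2.14 with acetate (adjusted p = 5.25e-06). If strand was not kept, reads of TMPO and TMPO-AS1 over the shared stretch cannot be told apart, and the antisense counts came to 1.25% of those of TMPO.

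The bases before the start sites of these genes are described next. Their part in the changes of RNA was not tested. A RefSeq start within 1000 bases of the reference transcript's start was available for 7 of the 10 genes, not for LMNA, SUN1 or HMGB2. The 250 bases before each start were searched on both strands for 3 motifs of genes that vary with the cell cycle. CCAAT, the letters bound by NF-Y, was in 5 of the 7, beside 32% of 35116 RefSeq promoters. The 5 were LMNB1, TMPO, SUN2, HMGB1 and HMGB3. The counted windows of LMNB1, LBR, TMPO, SUN2 and HMGB1 overlap an annotated exon of the gene. For LMNB1, a window free of its exons, before a start 513 bases from that of the reference transcript, held 0 CCAAT. The LBR window lies before a start 783 bases from that of its reference transcript. The cell cycle homology region, searched as TTTGAA or TTCGAA, was in 3 (LMNB2, SUN2, HMGB3), beside 14.3%. An E2F motif, searched as TTTCCCGC, TTTCGCGC, TTTGCCGC or TTTGGCGC, was in 0, beside 2.79%. HMGB1 and HMGB3 each held 3 copies of CCAAT, beside 2.93% of all promoters with 3 or more. The windows of TMPO (chr12:98515323-98515572, plus strand, before a start 17 bases from that of the reference transcript), HMGB3 (chrX:150983085-150983334, plus strand) and LMNB2 (chr19:2456960-2457209, minus strand), in GRCh38.p14 and 5′ to 3′, hold no annotated exon of the gene and have the matches in capitals.
TMPO: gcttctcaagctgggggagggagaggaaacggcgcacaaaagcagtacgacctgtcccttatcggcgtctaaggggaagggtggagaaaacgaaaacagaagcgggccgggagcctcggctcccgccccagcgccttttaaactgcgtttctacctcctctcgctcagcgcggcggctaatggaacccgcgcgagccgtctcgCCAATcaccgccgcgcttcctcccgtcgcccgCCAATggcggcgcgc
HMGB3: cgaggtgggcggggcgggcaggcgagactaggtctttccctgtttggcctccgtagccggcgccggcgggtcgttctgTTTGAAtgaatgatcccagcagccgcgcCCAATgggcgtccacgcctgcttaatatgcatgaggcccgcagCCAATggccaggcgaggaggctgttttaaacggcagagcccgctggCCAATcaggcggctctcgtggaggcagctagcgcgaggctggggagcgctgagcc
LMNB2: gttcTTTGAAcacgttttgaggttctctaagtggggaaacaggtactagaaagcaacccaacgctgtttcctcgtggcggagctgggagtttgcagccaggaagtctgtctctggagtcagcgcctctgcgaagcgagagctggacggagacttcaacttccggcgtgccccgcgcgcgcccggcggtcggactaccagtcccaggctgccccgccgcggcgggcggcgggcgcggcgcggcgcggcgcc
A match of letters is a description of the sequence and shows no binding in these cells.

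The change with acetate was also measured in the groups with mtDNA, which share no library with the first comparison. Both comparisons come from 1 cell line and from 1 fit with a shared estimate of the spread, so they are not fully independent. In the groups with mtDNA, 1 gene was higher and 7 lower with acetate, beside 27.4% of all genes higher and 29.9% lower. LMNB1 fell 3.83-fold (log2 fold change -1.94, SE 0.10, adjusted p = 9.47e-13, edgeR), HMGB3 2.68-fold (-1.42, adjusted p = 5.90e-13) and HMGB2 2.11-fold (-1.08, adjusted p = 8.61e-11). TMPO (-0.62), LMNA (-0.58), HMGB1 (-0.55) and LMNB2 (-0.35) fell as well. The same 7 genes were lower in both settings. LBR rose in the presence of mtDNA, from 41.5, 42.1 and 43.1 to 47.1, 49.8 and 52.9 CPM (0.24, SE 0.061, adjusted p = 0.00191), a call lost by library size (0.13, adjusted p = 0.0582). SUN2 did not pass the threshold there (0.079, 95% interval -0.10 to 0.26). Without replicate 2 of the combined group, the values were -1.86 for LMNB1, -1.36 for HMGB3, -1.10 for HMGB2 and 0.26 for LBR, and the counts were again 1 higher and 7 lower.

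**Figure D4:**
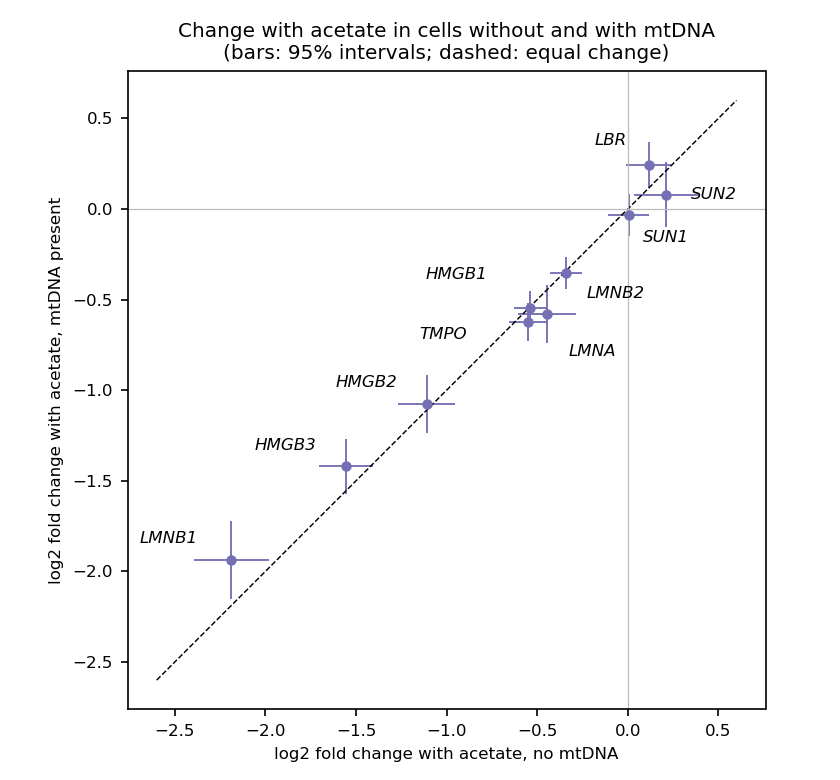
Log2 fold change with acetate in depleted cells without mtDNA (horizontal) against that with mtDNA (vertical), with 95% intervals and the line of equal change. The 7 called falls lie below 0 on both axes, from LMNB2 (-0.34 and -0.35) to LMNB1 (-2.19 and -1.94), and LBR, SUN1 and SUN2 lie around 0 or above.

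The difference between the 2 settings is the interaction of acetate and mtDNA. In edgeR 0 of the 10 genes were called, beside 0.0765% of all genes higher and 0.583% lower, and 0 had an unadjusted p under 0.05. DESeq2 also called 0. The estimates were 0.25 for LMNB1 (95% interval -0.057 to 0.56), 0.14 for HMGB3 (-0.077 to 0.35) and 0.034 for HMGB2 (-0.19 to 0.26), so a difference of up to 0.56 on the log2 scale in LMNB1 is within its interval. Without replicate 2 of the combined group the estimate for LMNB1 was 0.32 (adjusted p = 0.397). The interaction was called for 112 of all genes, and for 403 without that library.

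Added mtDNA came with a rise of all 7 interferon response genes, whose summed level was 50.8 to 58.8 CPM in depleted libraries and 3298 to 4862 CPM with mtDNA. The lamina and HMGB genes differed little at the same time. Beside TMPO, LMNA was at 358, 409 and 352 CPM with mtDNA (0.21, 95% interval 0.054 to 0.37, adjusted p = 0.0587), above every depleted library, and HMGB2 at 40.2, 42.7 and 39.5 CPM (0.18, 95% interval 0.027 to 0.33, adjusted p = 0.0985). LMNB1 changed by -0.055 (95% interval -0.24 to 0.13). In edgeR 3 of the 10 had an unadjusted p under 0.05. DESeq2 called LMNA (adjusted p = 0.0428) and TMPO. HMGB1 was called lower by library size (-0.14, adjusted p = 0.0264) and on log2(TPM + 1) (-0.14, adjusted p = 0.0091). In the presence of acetate, mtDNA left 0 of the 10 genes past the threshold in edgeR, beside 6.57% of all genes higher and 6% lower. Here 2 had an unadjusted p under 0.05, TMPO (0.13) and HMGB2 (0.21), and DESeq2 called these 2. By library size the calls were falls, of SUN1 (-0.15, adjusted p = 0.0352) and HMGB1 (-0.13, adjusted p = 0.0448). Without replicate 2 of the combined group, edgeR gave 0.086 for TMPO (adjusted p = 0.365) and 0.17 for HMGB2 (adjusted p = 0.246).

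The directions after CCCP depend on scaling for the genes with small changes. TMM factors were 0.874 to 0.969 in proliferating and senescent and 1.11 to 1.13 in depleted libraries. Scaling by library size alone shifted the median log2 fold change of all genes by 0.26 in that comparison and TPM shifted it by 0.41, with 8232 genes higher and 3434 lower, or 9720 and 2608, in place of 5776 and 5312. Under those scalings LMNA turned to 0.17 (adjusted p = 0.0382) and 0.34 (adjusted p = 0.00113). SUN1 was -0.030 (adjusted p = 0.588) and 0.14 (adjusted p = 0.0186), and SUN2 -0.039 and 0.13, neither past the threshold. The rises of LMNB1, LMNB2, LBR, TMPO, HMGB1, HMGB2 and HMGB3 kept their direction and their side of the threshold under all 27 alternative fits at the adjusted threshold. For acetate, library size alone shifted the median by -0.12 without and -0.11 with mtDNA, with 3692 genes higher and 6272 lower in the former and 3613 and 6376 in the latter, in place of 4902 and 4807 and of 4664 and 5084. TPM gave 3846 and 5882 for acetate without mtDNA. SUN1 in acetate without mtDNA was then -0.12 (adjusted p = 0.0357, library size). Senescence against proliferation split into 5628 higher and 4050 lower by library size, in place of 4539 and 5089. For mtDNA alone the split was 1182 and 2127 by library size and 1126 and 2184 by TPM, in place of 1814 and 1257. For mtDNA with acetate it was 657 and 1599 by library size, 627 and 1169 by TPM, 1641 and 894 by DESeq2's size factors and 1836 and 795 in its Wald test, in place of 1116 and 1020.

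The counts of the gene lists from here on are to be read beside the shares of all genes called. In senescent cells these were 26.7% higher and 29.9% lower, with CCCP 34% and 31.3%, and with acetate 28.8% and 28.3%. Of 12 other inner nuclear membrane and LEM-domain genes, 8 were higher and 3 lower in senescent cells (median log2 fold change 0.23, against -0.011 over all genes). TOR1A, an ATPase of the nuclear envelope lumen, rose by 0.67 (adjusted p = 9.02e-10, edgeR), and NRM, which encodes nurim, fell by 0.88 (adjusted p = 1.26e-07). With CCCP both turned, TOR1A by -0.84 (adjusted p = 1.19e-11) and NRM by 1.14 (adjusted p = 7.62e-10), within 4 higher and 6 lower of the 12 (median -0.11). With acetate, 2 were higher and 9 lower (median -0.28). NEMP1, a partner of emerin, changed by -1.06 (adjusted p = 3.96e-13), and LEMD2 by 0.61 (adjusted p = 8.95e-08).

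Of 6 genes of prelamin processing, which are 5 enzymes and NARF, a protein that binds prelamin A, 3 were higher and 1 lower in senescent cells (median 0.18). The lower one was NARF (-0.21, adjusted p = 0.0348, edgeR). ZMPSTE24, the protease that matures lamin A, rose by 0.82 (adjusted p = 3.74e-12, edgeR). With acetate 0 were higher and 5 lower (median -0.40), led by FNTB, a subunit of farnesyltransferase, at -1.08 (adjusted p = 6.82e-08). Of 4 nesprin genes 3 were tested, and all 3 were lower in senescent cells (median -0.95) and higher with CCCP (median 0.85). SYNE3, the outer membrane partner of SUN proteins, went by -1.56 and 1.04 and rose again with acetate, by 1.24 (adjusted p = 1.15e-11), where SYNE2 fell by 0.83 (adjusted p = 6.39e-05).

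Of 30 nuclear pore genes 28 were tested. In senescent cells 5 were higher and 16 lower (median -0.17), with CCCP 18 and 5 (median 0.29), and with acetate 2 and 16 (median -0.21). NUP155, of the inner ring, rose by 1.00 with CCCP (adjusted p = 7.39e-12, edgeR) and NUP188, also of the inner ring, fell by 0.73 with acetate (adjusted p = 1.99e-11). Of the 11 heterochromatin genes, 0 were higher and 8 lower in senescent cells (median -0.31). With CCCP 5 were higher, 2 lower and 4 neither (median 0.017, against 0.026 over all genes). With acetate 2 were higher and 5 lower (median -0.12). EZH2, which methylates histone H3, went by -0.73, 1.22 and -0.96 for senescence, CCCP and acetate (adjusted p = 1.21e-07, 1.22e-11 and 6.43e-10).

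Of 9 other HMG genes 8 were tested, with 2 higher and 6 lower in senescent cells (median -0.38), 5 and 0 with CCCP (median 0.41), and 3 and 3 with acetate (median -0.15). HMGN2, a nucleosome-binding protein, rose by 1.10 with CCCP (adjusted p = 4.68e-13, edgeR) and fell by 2.15 with acetate (adjusted p = 7.50e-17). HMGA1 and HMGA2, which bind the minor groove of AT-rich DNA, fell in senescent cells by 1.31 (adjusted p = 1.30e-13) and 0.82 (adjusted p = 2.82e-07). With acetate they rose by 0.72 (adjusted p = 1.75e-09) and 0.61 (adjusted p = 1.50e-05), opposite to HMGB1, HMGB2 and HMGB3. Of 4 receptors of extracellular HMGB1, 3 were tested, with 1 higher and 1 lower in senescent cells, 0 called with CCCP and 0 higher and 2 lower with acetate. AGER, which encodes RAGE, fell by 1.00 in senescent cells (adjusted p = 2.06e-04), from 2.79 to 1.40 CPM. TLR4 was higher in senescent cells and lower with acetate (adjusted p = 8.45e-05 and 7.19e-05), at means of 0.0391, 0.573, 0.936 and 0.161 CPM in proliferating, senescent, depleted and acetate-treated cells.

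Cell cycle genes moved with the same comparisons. Of 20 such genes, 1 was higher (E2F1) and 18 lower in senescent cells (median -0.96), 16 higher and 1 lower (CCNB1) with CCCP (median 1.00), and all 20 lower with acetate, without mtDNA (median -2.51) and with it (median -2.20). Their summed level was 789 to 797 CPM in proliferating, 413 to 447 in senescent and 843 to 893 in depleted libraries, 209 to 220 with acetate, 784 to 809 with mtDNA and 200 to 248 with both. The part of cell cycle state in the changes of the lamina and HMGB genes was not tested. Fibroblast markers moved as well. In senescent cells 6 of 8 were lower (median -0.55), with summed levels of 37074 to 40792 CPM in proliferating and 20345 to 25271 CPM in senescent libraries. After CCCP 8 of 8 were lower (median -2.29), at 6586 to 6880 CPM. Their part in the changes of the lamina and HMGB genes was not tested.

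**Figure D5:**
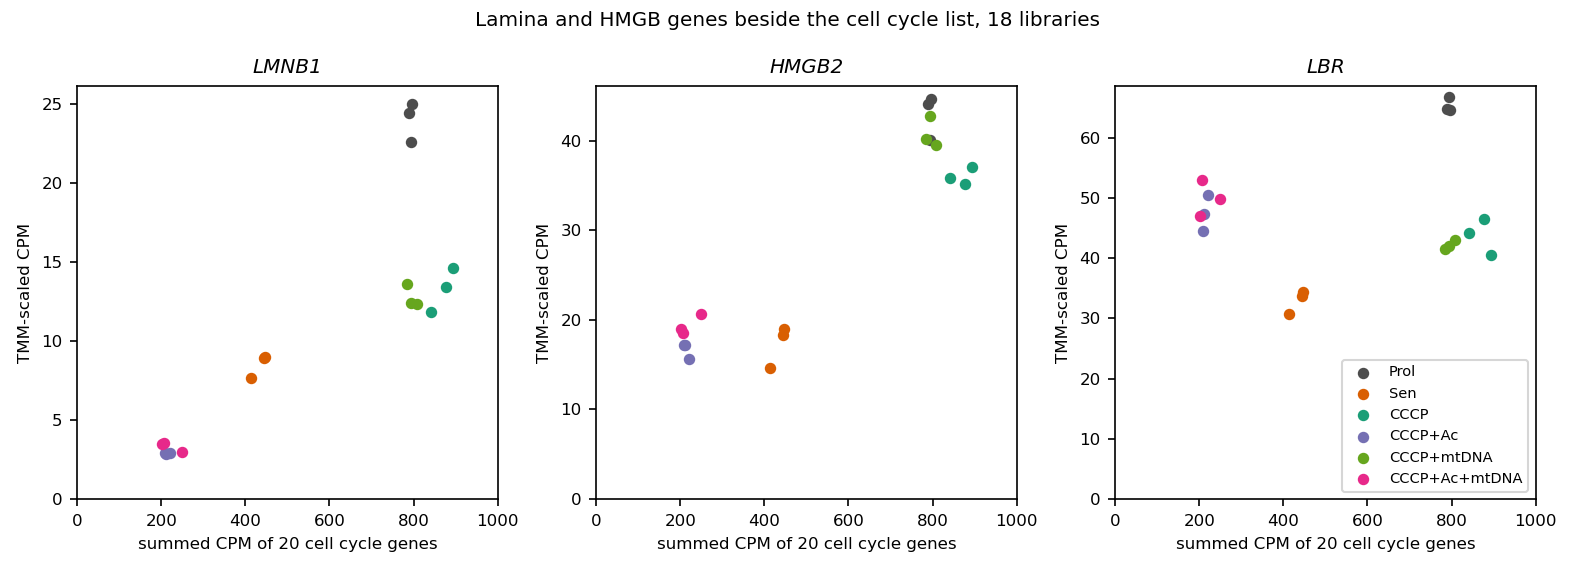
TMM-scaled CPM of LMNB1, HMGB2 and LBR in each of the 18 libraries against the summed CPM of 20 cell cycle genes. LMNB1 and HMGB2 are low where the sum is low, at 200 to 248 CPM in the acetate and mtDNA group, whereas LBR is higher there than in senescent cells, and proliferating libraries have the highest LMNB1 at sums of 789 to 797 CPM.

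Across the 18 libraries, which share groups and so are not independent points, the genes whose log2(CPM + 1) ran most like LMNB1 were BUB1 (Pearson's r = 0.987), SDC1, TOP2A, NEK2 and MKI67 (0.984). For HMGB2 they were LMNB2 (0.986), PTMA, CEP128, HMGB1 (0.962) and ANP32B, and for HMGB1 they were PTMA (0.979), S100A10, NCAPH, ATAD5 and C1orf21. For LMNA they were VIM (0.969), FXYD5, KHDRBS1, KDELC2 and EFNB1. Among the 10 genes, LMNB1 ran with LMNA (0.918) and HMGB3 (0.913), TMPO with HMGB2 (0.890), and SUN1 with SUN2 (0.844), while LBR and HMGB3 had an r of -0.139. These coefficients are given as descriptions, without a test.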

How the data were processed

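The 18 RNA-seq libraries fell by label into 6 groups of 3, and 0 columns were left without a sample. Per the labels and methods, reads were trimmed (Trimmomatic v0.36), mapped to GRCh38 (STAR v2.5.2b) and assigned to exons of genes if uniquely mapped (featureCounts, Subread v1.5.2). The raw counts the authors deposited are not normalized. The TPM the authors deposited correct for gene length and library size, with lengths not given in the sources used here. The methods say that counting respected strand for strand-specific libraries, but not whether these were such.

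Counts were fitted in edgeR 4.0.16 (R 4.3.3) by quasi-likelihood, with a mean for each of the 6 groups in a single model, TMM factors and filterByExpr by group. P-values are two-sided and were adjusted by Benjamini-Hochberg over 16994 genes, with a threshold of 0.05. The common biological coefficient of variation was 0.0644. Depth was 24624886 to 46224280 counts per library, so counting error was small except in genes of few counts. No 2 libraries held identical counts. TPM served for levels between genes. Alternatives were DESeq2 1.42.0 (size factors, Wald test, and a nominal p under 0.05 with an absolute log2 fold change over 0.5), scaling by library size, testing without a low-count filter, requiring 10 counts in all libraries, leaving out mtDNA-encoded genes, fitting the compared groups by themselves, a replicate block, limma 3.58.1 on log2(TPM + 1), and leaving out single libraries.

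The 10 genes and the gene lists were chosen with earlier results of these data known. Named genes are all 10, up to 2 rises and 2 falls past the threshold per list, transcripts related by symbol, and the 5 genes with the highest Pearson's r to LMNB1, HMGB2, LMNA and HMGB1. Cell type markers and genes with overlapping spans were named besides. Gene positions come from GENCODE and promoter sequences from RefSeq. Of the immune markers, 1 gene and the sum over the list are not reported here.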

Additional observations from a re-analysis of the deposited data

How the results depend on the processing

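Of the genes called in the 4 comparisons with many calls, those that kept direction and threshold under all 27 alternative fits at the adjusted threshold were 8 of 10 for senescence, 7 of 9 for CCCP, 7 of 8 for acetate and 7 of 8 for acetate with mtDNA. The exceptions were HMGB3 and SUN2, SUN1 and SUN2, SUN2, and LBR. The counts with mtDNA alone rest on small changes near the threshold.

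For mtDNA alone the count of called genes was 1 in the reported fit. It was 2 by library size (TMPO and a fall of HMGB1), 2 in DESeq2's Wald test, 0 by the nominal rule with a fold limit, 2 with no filter on low counts, 3 with only the groups compared and 1 to 3 with each library left out. LMNA passed without replicate 3 of Sen (IR), replicate 2 of the depleted, replicate 3 of the mtDNA or replicate 2 or 3 of the combined group, and HMGB2 without replicate 3 of Sen (IR) (adjusted p = 0.029). For mtDNA with acetate it was 0, and 2 with DESeq2's size factors (rises), 2 by library size (falls of SUN1 and HMGB1), 2 in DESeq2's Wald test and 0 to 1 with each library left out, HMGB2 passing without replicate 3 of Sen (IR) (adjusted p = 0.0253). The nominal rule gave 4 in place of 9 for CCCP and 5 in place of 8 for acetate. For senescence, the changes of LMNA (-0.30), SUN2 (-0.29) and HMGB3 (-0.17) in edgeR were also short of its fold limit of 0.5. So were those of LMNB2 (-0.35) and LBR (0.24) for acetate with mtDNA. Whether the replicate numbers pair the samples is not stated. Libraries of the same number in different groups correlated at over 0.1 in 2 of 45 pairs (median 0.0147). Those of different numbers did so in 7 of 90 pairs (median -0.0052). With 3 libraries a group this cannot exclude pairing, and the block result is given only here. With the replicate number as a block, mtDNA alone had 2 calls, LMNA being added (adjusted p = 0.00939), and the counts of the other comparisons stayed the same.

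Fold changes that changed sign were small, apart from those after CCCP. By library size these were LMNA (0.17), and for acetate LBR (-0.0061) and SUN1 (-0.12), and for acetate with mtDNA SUN2 (-0.031). On log2(TPM + 1) they were LMNA (0.34), SUN1 (0.14) and SUN2 (0.13) for CCCP and SUN1 (-0.091) for acetate, and with only the groups compared SUN1 (-0.0095). For mtDNA with acetate SUN2 was 0.014 with DESeq2's size factors and 0.016 in its Wald test. In the interaction LMNB2 was 0.016, 0.018 and 0.026 and HMGB1 0.022, 0.024 and 0.033 with size factors, Wald test and TPM. HMGB1 was also 0.0055 by library size and 0.00045 with at least 10 counts, and SUN1 0.0014 on TPM. With each library left out, the interaction spanned -0.031 to 0.0097 for HMGB1 and -0.012 to 0.062 for HMGB2, mtDNA alone -0.094 to 0.0058 for LBR and -0.13 to 0.031 for LMNB1, mtDNA with acetate -0.049 to 0.027 for SUN2, and acetate with mtDNA -0.046 to 0.0087 for SUN1. The cause of these changes was not tested.

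The share of LMNB1 in the lamin pool, taken from CPM without length, was 4.53% in proliferating, 2.07% in senescent and 3.23% in depleted cells, 0.973% with acetate, 2.75% with mtDNA and 1.06% with both. The interaction was called for 112 of all genes in the reported fit, for 258 by DESeq2's Wald test, 413 with no filter and 622 by the nominal rule. It was 403 without replicate 2 of the combined group, 204 without replicate 3 of Sen (IR) and 55 to 115 without any other single library. For mtDNA with acetate 2136 of all genes were called, and 1241 and 1296 without acetate replicate 2 and 3. The nominal rule called 5709, 7380, 5522, 5760, 1758 and 1290 genes for senescence, CCCP, acetate, acetate with mtDNA, mtDNA and mtDNA with acetate, in place of 9628, 11088, 9709, 9748, 3071 and 2136.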
